A study of Rattus norvegicus with 9 samples.

Results

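The 8 genes described here are the cytochrome P450 family 4 members Cyp4a1, Cyp4a2, Cyp4a3, Cyp4a8, Cyp4b1, Cyp4f1, Cyp4f4 and Cyp4v3, chosen by name from the 32883 genes of the deposited table. Their mRNA was measured by RNA sequencing in the livers of 9 male Sprague-Dawley rats, with 1 library per rat. The normal control group (rats N1, N3 and N12) received no diethylnitrosamine (DEN), a compound that damages liver DNA and gives fibrosis, cirrhosis and tumours. The DEN model group (M13, M17 and M24) was given 0.01% DEN into the peritoneum once a week over a 16-week schedule. The PZH administration group (G27, G28 and G42) was given DEN in the same way together with Pien-Tze-Huang (PZH), a Chinese patent medicine. Groups were read from the first letter of each rat's name, since the treatment tag of the M rats also reads PZH. The labels give neither the PZH dose nor the week of collection of single rats, so rats of a group may differ in both. All rats were fasted before collection. No statement ties any of the rats to a shared litter or cage.

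The enzymes of this family sit in the membrane of the endoplasmic reticulum and add a hydroxyl group to the omega carbon, the far end of a fatty acid chain. Alcohol and aldehyde dehydrogenases then turn that end into a second carboxyl group, and the resulting dicarboxylic acid is shortened by beta-oxidation, largely in peroxisomes. In rodent liver the Cyp4a genes are textbook targets of the fatty acid-sensing nuclear receptor PPAR-alpha and rise with fasting and fibrate drugs, while Cyp4f enzymes also hydroxylate arachidonic acid and inactivate leukotriene B4.

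In the coordinates of the deposited table, whose build is not given in the sources used here, 5 members lay close together on chromosome 5: Cyp4a8 at chr5:133978954-134008255, Cyp4a2 at chr5:134196912-134207863, Cyp4a3 at chr5:134469270-134484839, Cyp4a1 at chr5:134492756-134507154 and Cyp4b1 at chr5:134508730-134526089. Cyp4f4 (chr7:14891001-14907305) and Cyp4f1 (chr7:15179467-15190796) lay on chromosome 7, and Cyp4v3 (chr16:50111306-50136727) on chromosome 16. All 8 are annotated as protein coding, and these spans cover the whole genes, introns included. Cyp4a genes are close relatives of one another, and the RefSeq annotation of the rat assembly GRCr8 lists a Cyp4a2-like gene and pseudogenes near Cyp4a2. How the authors' counting shared reads between such copies is not stated, so the split of reads within the Cyp4a group is uncertain.

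Promoter sequences, from 250 bases before to 50 bases after the annotated start, were found in RefSeq (GRCr8) for 5 members. The pair below is shown because Cyp4a2 and Cyp4a3 had nearly the same promoter window, while their mRNA levels moved by unequal amounts. Capitals mark the letters AGGTCA, the core motif to which PPAR-alpha and other nuclear receptors bind. The windows lie on the minus strand of chromosome 5, at chr5:134170859-134171158 for Cyp4a2 and at chr5:134352187-134352486 for Cyp4a3 in GRCr8.
Cyp4a2: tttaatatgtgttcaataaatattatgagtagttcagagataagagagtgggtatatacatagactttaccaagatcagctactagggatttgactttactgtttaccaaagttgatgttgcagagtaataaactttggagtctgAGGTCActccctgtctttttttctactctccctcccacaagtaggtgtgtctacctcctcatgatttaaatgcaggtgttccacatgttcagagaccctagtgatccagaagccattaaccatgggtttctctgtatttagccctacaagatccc
Cyp4a3: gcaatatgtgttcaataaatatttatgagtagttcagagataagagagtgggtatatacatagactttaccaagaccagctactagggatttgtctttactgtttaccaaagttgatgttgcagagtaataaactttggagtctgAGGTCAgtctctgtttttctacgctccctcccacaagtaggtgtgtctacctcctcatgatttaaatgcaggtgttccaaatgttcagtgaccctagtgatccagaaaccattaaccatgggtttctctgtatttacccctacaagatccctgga

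The windows of this pair matched at 284 of 300 aligned positions (94.7%), while the other pairs among the 5 windows matched at 45.0% to 56.1%. In both windows the only AGGTCA match on either strand began 105 bases before the start. The windows of Cyp4a8, Cyp4b1 and Cyp4f1 held none. These letters occur in 16.2% of all 33469 promoter windows of this length, so a match describes the sequence and marks no proven site. A tandem pair of exact AGGTCA copies with 1 base between them occurs in 0.0538% of windows on either strand and was in none of the 5 members' windows.

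Library totals ran from 14922973 to 27161496 counted reads, the largest in G27. At that depth 3 reads, the floor used here, correspond to 0.125 to 0.252 CPM, read counts scaled to the size of the library, and all 8 members lay above it in all 9 rats. The TMM scaling factors, which correct CPM and the edgeR tests for differences in composition, were 0.731 to 0.799 in normal control rats, 1.21 to 1.58 in DEN model rats and 0.863 to 0.941 in PZH administration rats. Without TMM, under plain library totals, the median log2 fold change over all tested genes moved by 0.86 in DEN against normal, by -0.67 in PZH administration against DEN and by 0.23 in PZH administration against normal. The FPKM values below are the authors' values scaled for gene length and library size and carry no TMM factor, so folds read from FPKM differ from the edgeR folds wherever DEN rats are compared. The 10 hepatocyte markers, among them Alb, Ttr and Hnf4a, were detected in every rat. Their summed CPM was 172200 to 190700 in normal control rats, 38050 to 88860 in DEN model rats with M17 the highest, and 147000 to 183900 in PZH administration rats. Summed markers of cholangiocytes and progenitors were at 34.5 to 46.9, 369 to 911 and 117 to 173 CPM, and those of stellate cells and myofibroblasts at 215 to 338, 1178 to 3385 and 669 to 800 CPM, in the same order of groups. None of the 10 markers in either of these lists was at 0 in all rats. Fewer hepatocytes and less RNA per hepatocyte cannot be told apart in bulk liver.

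In normal liver Cyp4a2 and Cyp4a3 were on average the most abundant members per length. Cyp4a2 averaged 800.5 ± 785 FPKM and Cyp4a3 averaged 607 ± 267 FPKM (SD, n = 3 throughout), and their ranges overlapped. By mean they were followed by Cyp4f1 (259 ± 17) and Cyp4a1 (247 ± 23.6), which overlapped each other. Cyp4a2 also overlapped both of these. In N3 it stood at 169 FPKM, below Cyp4f1 (240) and Cyp4a1 (240). Below these came Cyp4v3 at 113 ± 4.07 FPKM and Cyp4f4 at 79.1 ± 13.2 FPKM, each clear of its neighbours. Cyp4b1, an enzyme better known from lung (7.40 ± 2.38 FPKM), and Cyp4a8 (4.11 ± 3.18 FPKM) were lowest and overlapped. The order was different in the DEN model group, where Cyp4a3 led with 145 ± 11 FPKM and Cyp4a2 came next to last with 15.1 ± 2.78 FPKM. Between them, Cyp4f1 (74.8 ± 33.0), Cyp4a1 (55.6 ± 5.64) and Cyp4v3 (49.3 ± 10.2) overlapped in FPKM from one to the next, as did Cyp4b1 (25 ± 7.79), Cyp4f4 (23.3 ± 12.8) and Cyp4a2. In the PZH administration group Cyp4a2 (370.5 ± 173 FPKM) and Cyp4a3 (362 ± 137 FPKM) stood at the top again by mean and overlapped. Each also overlapped Cyp4f1 (207 ± 37.0 FPKM), Cyp4a2 through G42 at 171 FPKM. Cyp4a1 (126 ± 38.4) and Cyp4v3 (85.7 ± 9.82) overlapped below them in FPKM. Cyp4f4 (60.0 ± 10.6), Cyp4b1 (17 ± 7.31) and Cyp4a8 (10 ± 2.44) followed, each apart from the next in FPKM.

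**Figure D1:**
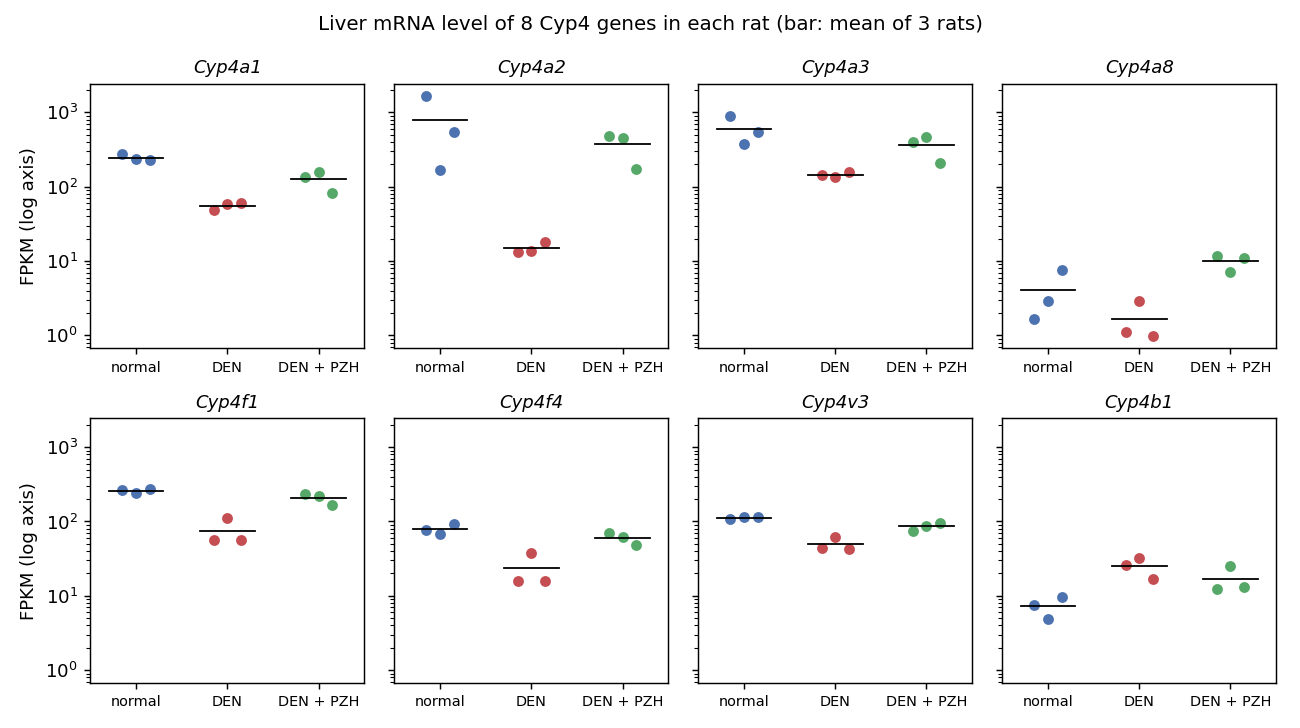
FPKM of each of the 8 genes on a log axis, with 1 point per rat by group (normal, DEN, DEN + PZH) and a bar at the mean of 3 rats. The DEN points lie below all normal points for Cyp4a1, Cyp4a2, Cyp4a3, Cyp4f1, Cyp4f4 and Cyp4v3, and above them for Cyp4b1, whose 3 DEN rats sit between 16.9 and 32.4 FPKM.

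The comparison of DEN model with normal control livers asks what the carcinogen did to these genes. By edgeR, at a threshold of 0.05 on the Benjamini-Hochberg adjusted p, 7 members fell and Cyp4b1 rose. The same threshold was passed by 45.8% of the 14255 genes tested, 20.5% as lower and 25.3% as higher. The groups did not overlap in CPM for 6 of the 8 members, against 58.8% of all tested genes. The members' median log2 fold change was -2.55, beside 0.03 over all tested genes. Under library totals the median was -1.78 and 6 members were called lower and 1 higher. Of all 14255 genes that scaling called 958 lower and 8126 higher, with a median of 0.895. The study's own thresholds (a log2 fold change beyond 2 either way and unadjusted P under 0.001) were passed by 6 members, against 12.3% of all tested genes.

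Cyp4a2 moved furthest. It stood at 1680, 169 and 553 FPKM in N1, N3 and N12, and at 13.4, 13.6 and 18.3 FPKM in M13, M17 and M24. The normal rats spread over 9.95-fold among themselves, yet the lowest of them lay above every DEN rat. The log2 fold change was -6.54 ± 0.84 (SE; edgeR adjusted p = 0.000631), and it was -5.45 without N1, the rat with the highest level. Cyp4a3, which like Cyp4a2 hydroxylates lauric and arachidonic acid, stood at 898, 374 and 548 FPKM in the normal rats and at 143, 135 and 157 FPKM in the DEN rats. The groups did not overlap, and Cyp4a3 fell by 2.90 ± 0.35 on the log2 scale (edgeR adjusted p = 0.000503).

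Cyp4a1, the member of the group first known for its induction by clofibrate, was even among normal rats, at 273, 240 and 228 FPKM in N1, N3 and N12. It stood at 49.2, 58.1 and 59.6 FPKM in M13, M17 and M24, with no overlap. It fell 7.95-fold in edgeR (log2 fold change -2.99 ± 0.26, adjusted p = 0.000152). Cyp4a8, a minor liver form, was at 1.68, 2.95 and 7.70 FPKM in the normal rats and at 1.10, 2.91 and 0.979 FPKM in the DEN rats. These ranges overlapped, with N12 apart from the rest. Its fall of 2.07 ± 0.67 on the log2 scale passed in edgeR (adjusted p = 0.0323) but missed the threshold under library totals (log2 fold change -1.30, adjusted p = 0.079), without N12 (-1.29, adjusted p = 0.146) and without N3, M13 or M24 (adjusted p = 0.0578, 0.096 and 0.0853), and without M17 it was -2.93.

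The Cyp4f pair, Cyp4f1 and Cyp4f4, moved side by side. Cyp4f1 was at 266, 240 and 272 FPKM in the normal rats and at 55.6, 113 and 55.9 FPKM in M13, M17 and M24. Cyp4f4 was at 76.9, 67.1 and 93.3 FPKM in the normal rats and at 16.0, 38.1 and 15.9 FPKM in the same DEN rats. In both genes M17 was the highest DEN rat and lay below every normal rat. M17 also had the highest summed hepatocyte markers of the DEN group, 88860 CPM beside 52680 in M13 and 38050 in M24. The part of that difference in the Cyp4f levels was not tested. Cyp4f1 fell by 2.58 ± 0.41 (edgeR adjusted p = 0.0015) and Cyp4f4 by 2.53 ± 0.44 (adjusted p = 0.00241) on the log2 scale, and without M17 these log2 fold changes were -3.19 and -3.27.

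Cyp4v3, the rat member of the Cyp4v subfamily whose human relative acts on fatty acids in the eye and is mutated in Bietti crystalline dystrophy, was at 108, 114 and 116 FPKM in the normal rats and at 43.7, 61.0 and 43.2 FPKM in the DEN rats. It fell by 2.02 ± 0.29 on the log2 scale (edgeR adjusted p = 0.00106), the smallest called fall among the 8 in this fit. Cyp4b1, which also activates some protoxins, went the other way, from 7.53, 4.95 and 9.71 FPKM in the normal rats to 25.8, 32.4 and 16.9 FPKM in the DEN rats. The groups were apart in FPKM but overlapped in TMM-scaled CPM, where M24 (21.1) lay below N12 (24.0). Its rise of 0.96 ± 0.34 on the log2 scale just passed in edgeR (adjusted p = 0.0473). It missed the threshold with all 3 groups in 1 fit (adjusted p = 0.0592) and without N1, N3, M13 or M17 (adjusted p = 0.126, 0.143, 0.0846 and 0.147). The rise was larger under library totals (log2 fold change 1.76, adjusted p = 0.00102), a scaling whose median shift over all tested genes was 0.86.

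**Figure D2:**
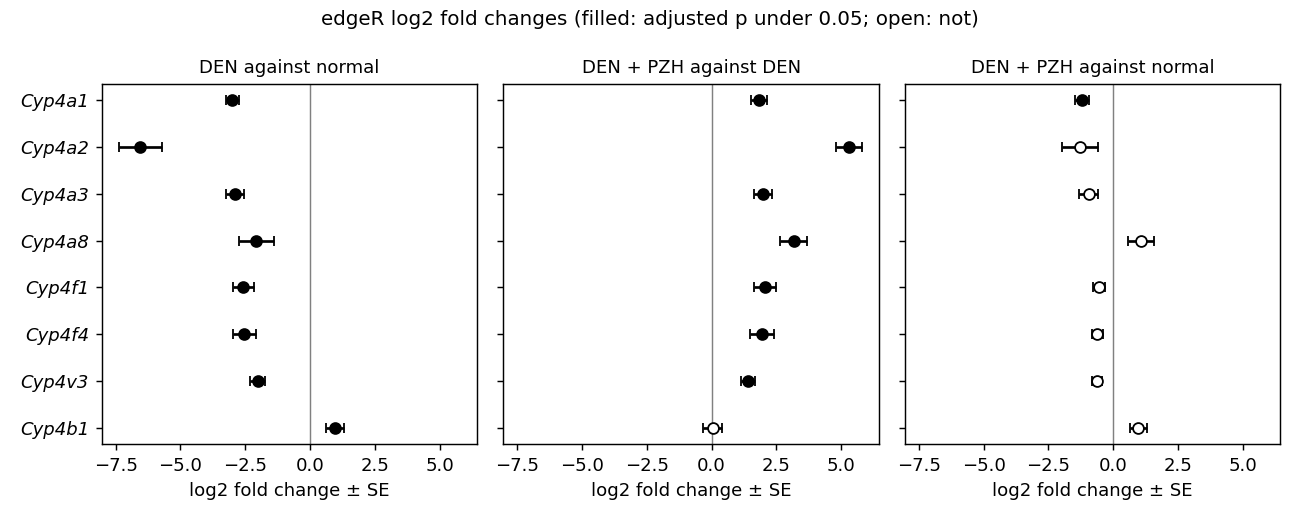
Log2 fold change with its SE from edgeR for each member in the 3 comparisons, filled where the adjusted p is under 0.05. DEN against normal runs from -6.54 (Cyp4a2) to 0.96 (Cyp4b1), PZH administration against DEN from 0.05 (Cyp4b1) to 5.31 (Cyp4a2), and PZH administration against normal from -1.27 (Cyp4a2) to 1.08 (Cyp4a8).

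Livers given PZH together with DEN had more of most of these mRNAs than livers given DEN alone. This comparison uses the same DEN rats as the one above. 7 members rose in edgeR at an adjusted p under 0.05 and none fell, where 19.1% of the 14272 genes tested passed, 8.72% as higher and 10.3% as lower. The groups did not overlap in CPM for 7 members, against 40.9% of all tested genes. The members' median log2 fold change was 1.97, beside 0.01 over all tested genes. Under library totals it was 1.34 with 7 members called higher. Of all 14272 genes that scaling called 556 higher and 5696 lower, with a median of -0.668. The count of 7 members in edgeR with TMM rests on single DEN rats. Without M13 only Cyp4a2 passed, and the other 6 had edgeR adjusted p-values of 0.0525 to 0.0919. Without M24 the Cyp4a members alone, 4 in number, passed. At the study's thresholds 2 members passed, Cyp4a2 and Cyp4a8, against 2.43% of all tested genes.

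Cyp4a2 again moved furthest, to 488, 452.5 and 171 FPKM in G27, G28 and G42 from at most 18.3 FPKM in the DEN rats. The lowest PZH rat, G42, still lay above every DEN rat. Its log2 fold change was 5.31 ± 0.49 (edgeR adjusted p = 0.00288). Cyp4a8 was at 11.8, 7.23 and 10.99 FPKM in the PZH rats, all above the DEN rats, and rose by 3.18 ± 0.52 (adjusted p = 0.0116), or by 4.03 without M17.

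Cyp4a3 stood at 404, 472 and 209 FPKM in G27, G28 and G42, and Cyp4a1 at 135, 158 and 83.4 FPKM. In both, as in Cyp4a2, G42 was the lowest PZH rat and lay above all DEN rats. Cyp4a3 rose by 1.99 ± 0.34 on the log2 scale in edgeR (adjusted p = 0.0131) and Cyp4a1 by 1.83 ± 0.31 (adjusted p = 0.0116).

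Cyp4f1 was at 237, 218 and 166 FPKM in the PZH rats and Cyp4f4 at 69.7, 61.5 and 48.8 FPKM. Both groups of PZH values lay above those of the DEN rats, M17 included. Cyp4f1 rose by 2.07 ± 0.42 on the log2 scale (edgeR adjusted p = 0.017). Cyp4f4 rose by 1.95 ± 0.45 (adjusted p = 0.0244), a call that was lost on leaving out any single rat but M17 (adjusted p = 0.0503 to 0.0919) and became a rise of 2.67 without M17. Cyp4v3 was at 75.2, 87.4 and 94.6 FPKM in the PZH rats, above the DEN rats, and rose by 1.42 ± 0.28 (edgeR adjusted p = 0.0161). Cyp4b1, at 12.3, 25.4 and 13.3 FPKM, overlapped the DEN rats. Its log2 fold change of 0.05 ± 0.38 did not pass (adjusted p = 0.944) and turned to -0.56 under library totals (adjusted p = 0.186).

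In PZH administration against normal, Cyp4a1 alone passed, lower by 1.2 ± 0.27 on the log2 scale (edgeR adjusted p = 0.0394), where 5.21% of the 13348 genes tested passed, 1.15% as lower and 4.07% as higher. Without adjustment 6 members had a p under 0.05 in edgeR and 7 in DESeq2. The share of all tested genes at that unadjusted threshold was not counted. After adjustment DESeq2 called 2 members, Cyp4a1 and Cyp4v3, and 1320 genes in all, where edgeR called 696. No member passed the study's thresholds in edgeR, against 2.32% of all tested genes. The Cyp4a1 call missed the threshold under library totals (adjusted p = 0.0558) and on leaving out any rat but G27 (adjusted p = 0.079 to 0.121). The PZH and normal rats did not overlap in CPM for 6 members, against 24.2% of all tested genes, and the members' median log2 fold change was -0.62, beside -0.02 over all tested genes. Cyp4a2 (-1.27 ± 0.70), Cyp4a3 (-0.94 ± 0.37), Cyp4f1 (-0.55 ± 0.22), Cyp4f4 (-0.61 ± 0.22) and Cyp4v3 (-0.63 ± 0.19) had log2 fold changes below 0 that did not pass (adjusted p = 0.101 to 0.384). Cyp4a8 (1.08 ± 0.49) and Cyp4b1 (0.98 ± 0.32) had log2 fold changes above 0 that did not pass either (adjusted p = 0.282 and 0.126). For Cyp4a2 the value rests on N1, without which it was -0.17, and for Cyp4a8 it was 1.82 without N12 (adjusted p = 0.0598).

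Ratios between members within a rat need no scaling between libraries. They were taken up after the members' values had been seen. Cyp4f1 over Cyp4f4 was 2.92 to 3.58 in FPKM over all 9 rats, with means of 3.32 ± 0.35 in normal, 3.32 ± 0.31 in DEN and 3.45 ± 0.09 in PZH livers. The group means differed by 0.00 to 0.06 on the log2 scale, and the groups overlapped in each comparison. Cyp4a3 over Cyp4a1 was 2.42 ± 0.86, 2.63 ± 0.29 and 2.83 ± 0.28 in the same order, and the groups overlapped in each comparison.

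Cyp4a2 over Cyp4a3, the pair whose promoter windows are shown above, was not constant. The FPKM ratio was 1.87, 0.451 and 1.008 in N1, N3 and N12, and 0.0935, 0.1003 and 0.117 in M13, M17 and M24. It stood at 1.21, 0.958 and 0.819 in G27, G28 and G42. The DEN rats lay below all others, 9.20-fold below the normal rats and 9.53-fold below the PZH rats as geometric means. An exact two-sided permutation test gave p = 0.1 for each of these differences, the smallest that 3 rats against 3 can give. Since the groups had been seen to lie apart, that p was fixed in advance. Between PZH and normal rats Cyp4a2 over Cyp4a3 differed by 0.05 on the log2 scale with overlap. DEN and normal rats were also apart in Cyp4a2 over Cyp4a1 (8.14-fold lower in DEN) and Cyp4b1 over Cyp4a1 (15.1-fold higher), with the same permutation p.

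**Figure D3:**
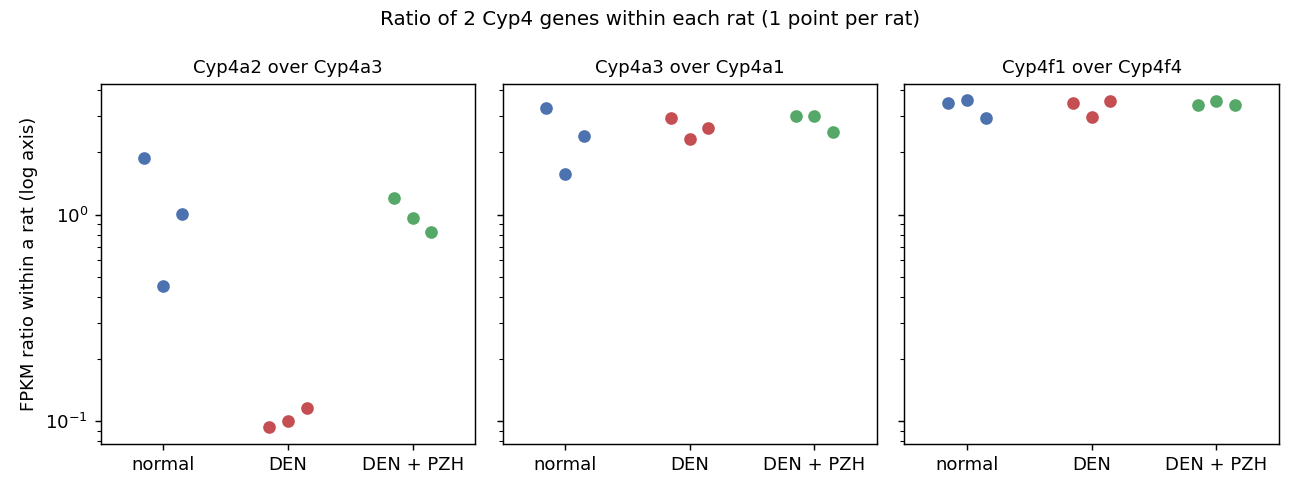
FPKM ratio of 2 members within each rat on a log axis, with 1 point per rat, for Cyp4a2 over Cyp4a3, Cyp4a3 over Cyp4a1 and Cyp4f1 over Cyp4f4. The DEN rats lie at 0.0935 to 0.117 for Cyp4a2 over Cyp4a3, apart from the other rats, while Cyp4f1 over Cyp4f4 stays between 2.92 and 3.58.

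The make-up of the family's mRNA followed from these ratios. Summed over the 8 members, FPKM was 3311, 1211 and 1828 in N1, N3 and N12, then 348, 454 and 368 in the DEN rats and 1433, 1483 and 797 in the PZH rats. Normal and PZH rats overlapped in this sum, and all DEN rats lay below both. Cyp4a2 made up 31.6 ± 18.4% of the sum in normal, 3.94 ± 1.00% in DEN and 28.7 ± 6.47% in PZH livers. The share of Cyp4b1 was 0.389 ± 0.153%, 6.38 ± 1.55% and 1.41 ± 0.482%, and that of Cyp4v3 was 6.35 ± 3.08%, 12.6 ± 0.846% and 7.67 ± 3.65%, in the same order. As shares of summed counts, which do not correct for length, Cyp4a2 made up 39.0%, 5.48% and 36.5%, Cyp4b1 0.287%, 5.15% and 1.05%, and Cyp4v3 8.79%, 18.9% and 10.6%. Cyp4a3 kept between 26.2% and 42.7% of the FPKM sum in every rat, and averaged 22.0%, 31.3% and 21.8% of the counts.

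**Figure D4:**
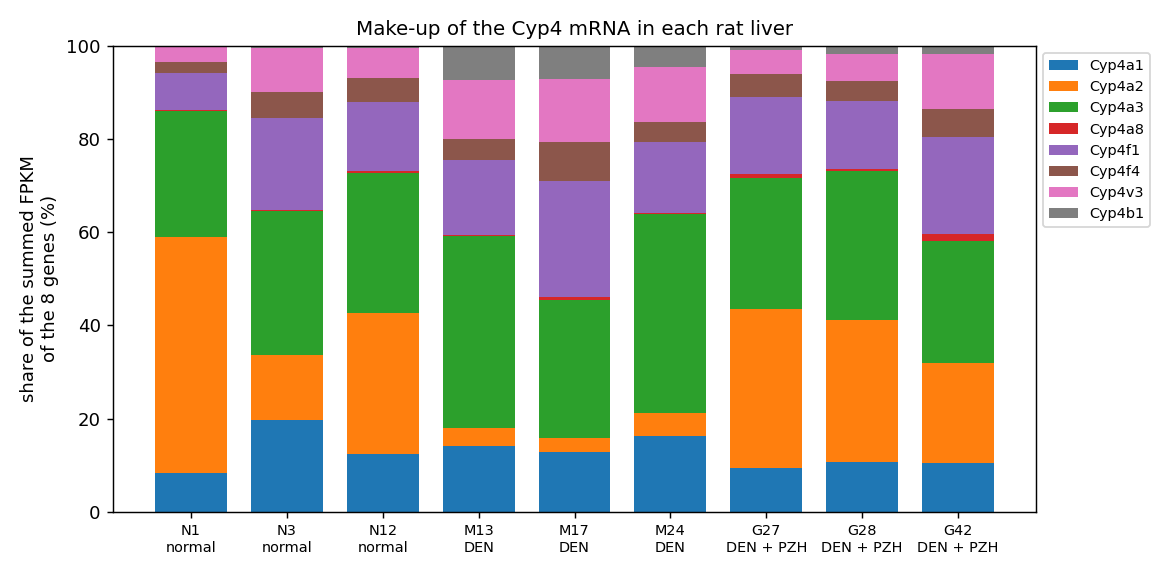
Share of each member in the summed FPKM of the 8 genes, as stacked bars from 0 to 100% for each rat. Cyp4a2 holds 2.99% to 4.98% of the sum in the DEN rats and at least 13.9% in every normal and PZH rat.

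The members were also set against the hepatocyte markers of the same rat, as reads per 10000 reads of the 10 marker genes, a measure chosen after the levels had been seen. Alb and Tf supplied 64.4% to 74.7% of the marker reads. On this scale 6 members were lower in every DEN rat than in any normal rat, where 2.94% of all tested genes were, and Cyp4b1 was higher, as were 81.8% of all tested genes (84.8% in either direction). Cyp4a2 stood at 386, 41.2 and 137 reads per 10000 in N1, N3 and N12 and at 5.81, 4.27 and 10.4 in the DEN rats. Cyp4a1 stood at 48.6 ± 2.73 in normal and 20.1 ± 6.71 in DEN livers, Cyp4f1 at 40.8 ± 2.94 and 20.0 ± 3.83, and Cyp4v3 at 29.3 ± 2.16 and 22.6 ± 3.34 reads per 10000. M17 was still the highest DEN rat for the Cyp4f pair, with Cyp4f1 at 15.8, 23.3 and 20.7 and Cyp4f4 at 4.54, 7.83 and 5.86 reads per 10000 in M13, M17 and M24.

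Between PZH administration and DEN livers the same measure gave a narrower picture. Cyp4a2 (84.4 ± 36.7 reads per 10000 in PZH livers), Cyp4a8 (1.68 ± 0.387 against 0.473 ± 0.172) and Cyp4f1 (31.2 ± 3.94) were higher in every PZH rat than in any DEN rat, as were 1.55% of all tested genes. Cyp4a1 (23.7 ± 6.91), Cyp4a3 (49.4 ± 17.9 against 38.3 ± 13.8), Cyp4f4 (8.996 ± 1.04 against 6.07 ± 1.66) and Cyp4v3 (21.6 ± 3.90) overlapped with the DEN rats. Cyp4b1 was lower, at 2.30 ± 1.03 against 5.98 ± 0.475 reads per 10000, as were 81.5% of all tested genes. On this scale 4 of the 7 members that rose in edgeR thus overlapped between the groups, and 83.1% of all tested genes did not overlap in either direction. Set against normal rats, Cyp4a1, Cyp4f1, Cyp4f4 and Cyp4v3 were lower in every PZH rat and Cyp4b1 was higher, with 3 members overlapping. Of all tested genes 22.4% did not overlap there, 5.19% as lower and 17.2% as higher.

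The remaining 8 genes of the table named Cyp4f or Cyp4x were low in liver, apart from Cyp4f6. Cyp4f6, whose CPM averaged 102.5 in normal, 30.3 in DEN and 86.0 in PZH livers, fell by 1.74 ± 0.21 on the log2 scale with DEN (edgeR adjusted p = 0.000433) and was higher by 1.53 ± 0.22 with PZH (adjusted p = 0.00919). Cyp4f5 went up with DEN, from 0.731 to 4.66 CPM (log2 fold change 2.67 ± 0.41, adjusted p = 0.00139), and stayed above normal in PZH livers (3.94 CPM, log2 fold change 2.42 ± 0.44, adjusted p = 0.0167), a call lost without N1, G28 or G42 (adjusted p = 0.0597 to 0.0718). Its locus overlaps that of Cyp4f17 in the table, so their reads may be shared. Cyp4f17, Cyp4f37 and Cyp4f39 averaged at most 13.9 CPM in any group and passed in no comparison in edgeR with TMM. Under other settings Cyp4f17 was called higher with DEN (library totals, adjusted p = 0.0102, and limma on log2(FPKM + 1), adjusted p = 0.0153). Cyp4f39 was called lower with DEN in DESeq2 (adjusted p = 0.0401) and in edgeR with all 3 groups in 1 fit (adjusted p = 0.0346). It was also called in edgeR without M17 or N3 (adjusted p = 0.0152 and 0.0328). Cyp4f37 was called higher with PZH than in DEN (DESeq2, adjusted p = 0.0372). Cyp4f18, Cyp4f40 and Cyp4x1 had too few reads to be tested.

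Genes that act with or after these enzymes were described as lists. Of 16 tested electron donors and enzymes of the later steps, 11 fell and 1 rose in DEN against normal (median log2 fold change -1.43), and 8 rose and none fell in PZH administration against DEN (median 0.96). Acsl1, which couples long-chain fatty acids to coenzyme A, fell by 3.02 ± 0.39 on the log2 scale (edgeR adjusted p = 0.000642) and was higher by 2.01 ± 0.34 with PZH (adjusted p = 0.0122). The fatty acid transporters Slc27a5 (-3.38, and -4.91 without M17) and Slc27a2 (-2.13) were the other members of the 3 largest called falls in log2 terms, while Adh4, an alcohol dehydrogenase (-1.01), and Cyb5r3, a cytochrome b5 reductase (-1.03), had the smallest called ones, both lost on leaving out 1 of several rats (adjusted p = 0.0528 to 0.133). Aldh1a1, an aldehyde dehydrogenase, rose by 1.81 ± 0.40 with DEN (adjusted p = 0.00654). Under library totals 8 of these 16 were called lower and 2 higher in DEN against normal, and 5 higher in PZH administration against DEN. Adh4 (-0.19, edgeR adjusted p = 0.542) and Cyb5r3 (-0.20, adjusted p = 0.47) were then not called in DEN against normal.

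In peroxisomal beta-oxidation, which receives the dicarboxylic acids, 18 of the 19 tested genes fell in DEN against normal and Abcd2 alone rose (median -1.83). With PZH 11 of 19 were higher than in DEN and none lower (median 1.01). Crot, which exports shortened chains from the peroxisome as carnitine esters, fell by 3.58 ± 0.25 (edgeR adjusted p = 7.02e-05) and was higher by 2.41 ± 0.28 with PZH (adjusted p = 0.0075). Ehhadh, the bifunctional enzyme of the pathway, fell by 3.10 ± 0.31 (adjusted p = 0.000231) and was higher by 2.07 ± 0.29 (adjusted p = 0.00919). Amacr, a racemase of branched chains, had log2 fold changes of -2.92 and 2.23, both called, which were -3.60 and 2.89 without M17, and the latter was 1.52 without G27 (adjusted p = 0.113). The thioesterase Acot8 (-0.90) was among the smallest called falls and was lost without N1, N12, M13 or M24 (adjusted p = 0.0646 to 0.102). Abcd2 was at 0.112 CPM in normal livers, where 2 of the 3 rats had no read, and at 1.199 CPM in DEN livers, a call lost without N1, N12 or M24 (adjusted p = 0.0553 to 0.0686). Against normal, 3 of 18 were lower in PZH livers, among them Crot and Ehhadh, whose calls were lost on leaving out 1 of several rats (adjusted p = 0.0541 to 0.147). Under library totals 13 of the 19 fell in DEN against normal and 6 were higher with PZH. Acot8 (-0.06, edgeR adjusted p = 0.882) was then not among those that fell.

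Ppara, the gene of PPAR-alpha itself, averaged 93.3 ± 3.51 CPM in normal, 33.9 ± 14.5 in DEN and 78.2 ± 2.69 in PZH livers. It fell by 1.44 ± 0.28 on the log2 scale (edgeR adjusted p = 0.00369) and was higher by 1.23 ± 0.28 with PZH (adjusted p = 0.0242). Of the 8 genes for the receptor and its partners, 4 fell with DEN (median -1.21), the others being its dimer partner Rxra (-1.94), the coactivator Ppargc1b (-1.70) and the liver transcription factor Creb3l3 (-2.02). With PZH, Ppara and Creb3l3 (1.27) passed as higher than in DEN. Under library totals 3 of the 8 were lower and 1 higher with DEN. With PZH 0 of the 8 then passed in edgeR, 3 of them with an unadjusted p under 0.05. The share of all genes at that unadjusted threshold was not counted. DESeq2 with its own size factors called 4 of the 8, and of all 14272 genes it called 1812 higher and 1969 lower. Among 20 textbook targets of the receptor outside this family, 19 fell with DEN and none rose (median -1.60). With PZH 10 were higher than in DEN and none lower (median 0.87), and 4 were lower than in normal livers (median -0.85). Fabp1, the liver fatty acid-binding protein, had log2 fold changes of -4.36 and 3.28, and Pdk4, a kinase that holds back pyruvate oxidation, of -3.07 and 1.70, all called. Those of Fabp1 were -5.30 and 4.19 without M17, and the latter was 2.11 without G27 (adjusted p = 0.0679). Fgf21, a hormone of the fasted liver, fell by 4.09 ± 1.07, a size that rests on N1, without which it was -1.57 (edgeR adjusted p = 0.0118). It was higher by 1.24 ± 0.24 with PZH. That rise missed the threshold in edgeR with all 3 groups in 1 fit (adjusted p = 0.375) and under library totals (0.57, adjusted p = 0.143). With limma on log2(FPKM + 1) neither the fall (adjusted p = 0.12) nor the rise (adjusted p = 0.128) passed. Plin2 (-1.23), Hadhb (-1.15) and Acadl (-1.09) had the smallest called falls with DEN. Under library totals these were -0.40, -0.31 and -0.25 and did not pass in edgeR (adjusted p = 0.224 to 0.337). Under library totals 12 of the 20 targets fell with DEN, and with PZH 6 were higher and 1 lower.

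Other enzymes of arachidonic acid and leukotrienes, which share substrates with the Cyp4f members, did not move in a single direction. With DEN 6 of 13 rose and 4 fell (median 0.45), and with PZH 2 were higher and 2 lower than in DEN (median -0.57). Cyp2c11, the major male-specific P450 of rat liver, went from 1732 CPM in normal to 1.011 in DEN and 663 in PZH livers (log2 fold changes -10.73 and 9.39, edgeR adjusted p = 1.79e-05 and 0.000529). Cyp2c23, an arachidonate epoxygenase, fell by 2.13 and was higher by 1.55 with PZH, and Ltc4s, which makes leukotriene C4, fell by 4.15 with DEN (-3.23 without N1). Alox5, which starts leukotriene synthesis, rose in log2 terms with DEN (3.21, and 2.61 without N1 or 4.20 without N12). So did Ptgr1, an enzyme that acts on leukotriene B4 and prostaglandins (2.76), and the cyclooxygenase Ptgs2. Ptgs2 had at most 3 reads per rat in normal livers and 74 to 201 in DEN livers. Under library totals 8 of the 13 rose and 3 fell with DEN (median 1.32). With PZH 2 were then higher and 7 lower than in DEN (median -1.22). Of all tested genes that scaling called 8126 of 14255 higher and 958 lower with DEN (median 0.895). With PZH it called 556 of 14272 higher and 5696 lower than in DEN (median -0.668). Of the genes named in these 5 lists as higher with PZH, Crot, Ehhadh and Cyp2c11 kept their calls without M13, while Acsl1, Amacr, Ppara, Creb3l3, Fabp1, Pdk4, Fgf21 and Cyp2c23 lost theirs (adjusted p = 0.0627 to 0.149), as all of these but Acsl1 did without M24 (0.0524 to 0.14). Ppara, Creb3l3 and Cyp2c23 also missed the threshold without any single PZH rat, Amacr and Fabp1 without G27 or G28, and Pdk4 without G28 (adjusted p = 0.0512 to 0.113).

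**Figure D5:**
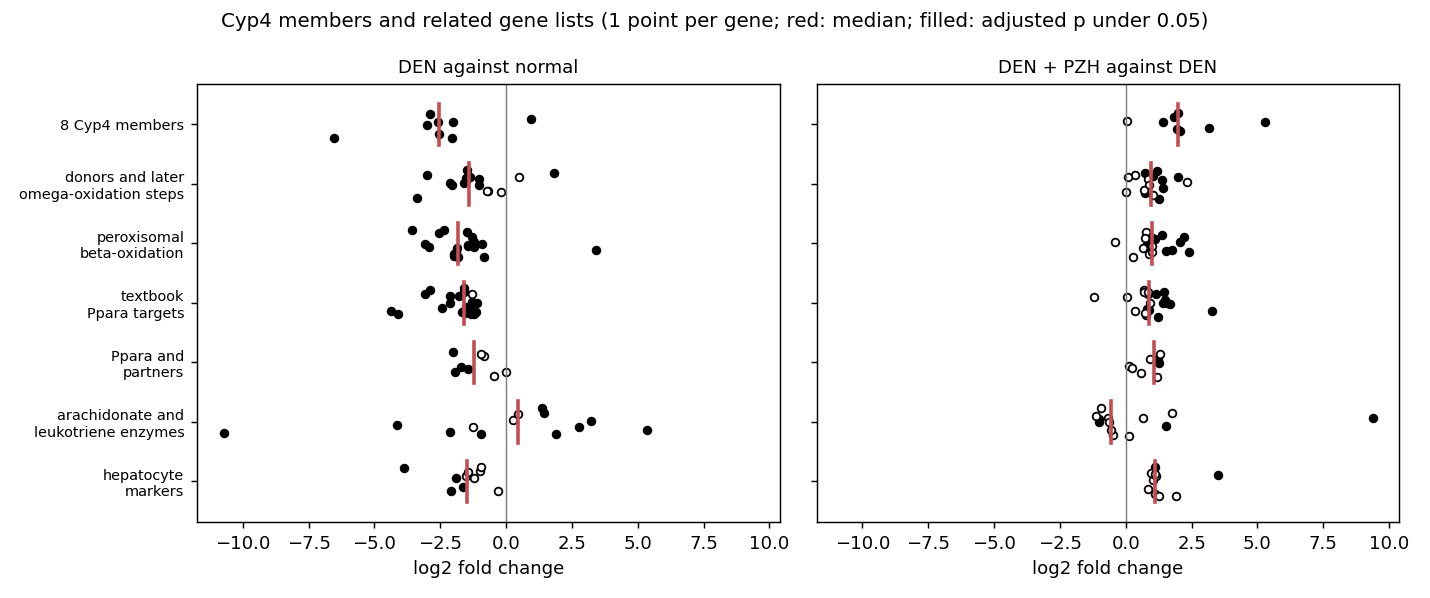
Log2 fold change of each tested gene in the family and in 6 related lists for DEN against normal and PZH administration against DEN, filled where the adjusted p is under 0.05, with the list's median as a red line. The members' medians are -2.55 and 1.97, those of the hepatocyte markers -1.49 and 1.12, and those of the textbook PPAR-alpha targets -1.60 and 0.87.

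The hepatocyte markers themselves had a median log2 fold change of -1.49 in DEN against normal, with 4 of 10 lower, and of 1.12 in PZH administration against DEN, with 2 of 10 higher. Under library totals the medians were -0.70 and 0.52 with the same numbers called, and DESeq2 called 9 lower with DEN and 8 higher with PZH. Of all tested genes DESeq2 called 3089 lower with DEN and 1812 higher with PZH. All 10 cholangiocyte and progenitor markers and 9 of 10 stellate cell and myofibroblast markers rose with DEN, and 9 and 6 of them were lower with PZH than in DEN. None of 8 macrophage markers rose and 2 fell with DEN, and 4 were lower with PZH. Under library totals 5 rose and 1 fell with DEN and 5 were lower with PZH. That scaling also called 8126 of all 14255 tested genes higher with DEN, and 5696 of 14272 lower with PZH. All counts under library totals given here stand beside these. Among 5 endothelial markers 3 fell and 1 rose with DEN, and 1 was higher with PZH, against 1 fall and 1 rise with DEN and 1 lower with PZH under library totals. Of 4 tested lymphocyte markers 2 rose with DEN (4 under library totals), and of 5 tested gut epithelium markers 3 rose with DEN and 3 were lower with PZH. The part of any of these cell type markers in the levels of the Cyp4 genes was not tested beyond the ratios to hepatocyte reads.

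The genes whose profile over the 9 rats was most like each member were found among 9396 genes, by the root mean square difference of mean-centred log2(CPM + 1). For Cyp4f1 the nearest was Cyp4f4 (0.10), then Hao1 (0.12) and Abcb11 (0.14). For Cyp4f4 they were Cyp4f1, Hao1 (0.11) and Cpn2 (0.14). Cyp4v3 was nearest to Sdc2 (0.11), Atrn (0.12) and Pecr, a peroxisomal reductase (0.12). Cyp4a1 was nearest to Trhde (0.18), Egfr (0.21) and Ehhadh (0.22), and Cyp4a3 to Ehhadh (0.28), Cyp4a1 (0.30) and Pdk4 (0.31), so the peroxisomal enzyme Ehhadh stood among the nearest of both. Cyp4b1 was nearest to Dnajc12 (0.33), Jpt2 (0.34) and Nab2 (0.35). The remaining members had larger distances to their nearest genes, on a measure that is not scaled to each gene's own spread. Cyp4a8 was nearest to Cyp7a1, the rate-limiting enzyme of bile acid synthesis (0.59), and Glt1d1 (0.65). Cyp4a2 was nearest to Acnat2 (0.76), Mup4 (0.85) and Dhrs7l1 (0.89).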

How the data were processed

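Liver mRNA of 9 rats, 3 per group, was sequenced by the authors. The authors deposited a table of 32883 genes with raw read counts per gene and rat and with FPKM, in which they scaled the counts for length and library size. The submitters' processing notes name fastp, HISAT2 2.1.0, StringTie 1.3.3b and edgeR 3.30.3, and the genome build is not given in the sources used here. The table also holds the authors' own group comparisons as log2 fold changes with P- and Q-values, which were not used.

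Counts were tested in R 4.3.3 with edgeR 4.0.16 (filterByExpr, TMM and the quasi-likelihood functions glmQLFit and glmQLFTest), fitted over all genes on the 6 rats compared, with Benjamini-Hochberg adjustment and a threshold of 0.05. With 3 rats per group an exact permutation test cannot give a p below 0.1, and it was used only for ratios between members. The fitting steps were run on simulated counts with the same noise setting for every gene and as many genes raised as lowered. That run does not cover the differences in composition between these libraries. The p-values set a group difference against the spread between the rats of a group. SEs come from the edgeR fits and carry the spread between rats, and SDs are over the 3 rats of a group. The floor covers counting error only.

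The members and gene lists were chosen with earlier results of these data known. Cyp46a1 begins with the same letters but is of another family and was left out. Named were the 8 members, the remaining Cyp4 genes, from each list the 3 largest and 3 smallest called log2 fold changes in DEN against normal, and for each member the 3 nearest genes with a mean of at least 5 CPM, except for items that are not reported here. Adh1, Adh5, Acaa1b, Cd36, Cyp2j3, Pecam1 and Muc2 were not matched in the table. Alternatives were DESeq2 1.42.0, other scalings and filters, the study's thresholds, 1 fit over all groups, limma 3.58.1 on log2(FPKM + 1), shares of summed counts in place of FPKM and leaving out each rat. Motifs were counted on both strands of the RefSeq GRCr8 promoter windows.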

Additional observations from a re-analysis of the deposited data

How the results depend on the processing

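In DEN against normal 6 to 8 of the 8 members were called under all alternatives, the rats left out in turn included (6 to 7). In PZH administration against DEN the count was 2 at the study's thresholds, 7 under the other scalings, filters and tools, and 1 to 7 on leaving out a rat. In PZH administration against normal it was 0 at the study's thresholds, under library totals, with at least 10 counts in every rat and with limma on FPKM, 2 with DESeq2 (Cyp4a1 and Cyp4v3), and 0 to 1 on leaving out a rat. Cyp4b1 in PZH administration against DEN turned from 0.05 to -0.56 under library totals, -0.56 with limma on FPKM, -0.33 without G28 and -0.22 without M24 (up to 0.41 without M17), and the cause was not tested. Over members and alternatives, 315 values kept direction and side of the threshold, 40 lost the threshold, 1 gained it and 4 turned. Of all genes, 6529, 2722 and 696 were called in the 3 comparisons, and 1753, 347 and 310 at the study's thresholds. In DEN against normal 55.3% of calls were higher, 89.5% under library totals, 89.2% with limma on FPKM and 71.6% at the study's thresholds. Between PZH administration and DEN livers library totals gave 6252 calls with 8.89% higher and limma 5727 with 9.41%, beside 45.7%, and leaving out a rat gave 271 (without M13) to 3319. Between PZH administration and normal livers 78.0% of calls were higher, 90.0% under library totals, DESeq2 gave 1320 calls (67.8% higher), the 10-count filter 340, limma 88.4% higher and leaving out a rat 207 to 1326. Depth limits Cyp4a8, counted at 37 to 793 reads per rat. No paired analysis was possible because the rats' numbers are not shared between groups. Shares of summed counts in place of FPKM kept the low Cyp4a2 share of the DEN rats and moved the shares of Cyp4a1, Cyp4a2 and Cyp4v3 in DEN, of Cyp4a3 in normal and of Cyp4a2 and Cyp4a3 in PZH livers by more than 1 SD.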
